A study of Homo sapiens with 6 samples.

Results

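Integrins and laminins were taken as every protein-coding gene of the count table whose symbol names an integrin alpha chain, an integrin beta chain or a laminin alpha, beta or gamma chain. This gave 38 of the 58735 genes listed: 18 integrin alpha chains, 8 integrin beta chains, 5 laminin alpha chains, 4 laminin beta chains and 3 laminin gamma chains. The cells were MDA-MB-231, a human line established from a breast cancer of the triple-negative type, and total RNA was sequenced. The 3 Control libraries and the 3 libraries labelled PM2.5 (fine airborne particulate matter) come from the same line. RNA was taken 48 hours into the exposure. The sources used here do not give the particle dose, what the Control cells received, or a batch of cultures or libraries. All 6 libraries are of 1 cell line grown without the other cells of a tissue, and the design text calls the 3 libraries of a group biological replicates without saying how separate the cultures were, so p-values measure the spread between these libraries, which may be technical.

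An integrin is a receptor of 1 alpha and 1 beta chain that spans the plasma membrane, binds matrix outside the cell and is linked by talin and kindlin to actin inside it. The alpha chain largely sets the ligand: alpha 1, 2, 10 and 11 bind collagens, alpha 3, 6 and 7 bind laminins, and alpha 5, 8 and V bind the arginine-glycine-aspartate (RGD) motif of fibronectin and related proteins. Beta 1 serves many alpha chains, whereas beta 4 pairs with alpha 6 alone and joins keratin filaments in hemidesmosomes. Laminins are cross-shaped trimers of an alpha, a beta and a gamma chain, numbered by their chains, and form the sheet of the basement membrane. Laminin-332 is the laminin of epithelial hemidesmosomes and is known from the invasive front of carcinomas, and laminin-511 and laminin-521 are widespread in basement membranes.

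Total counts ran from 31846136 to 34691009 per library. The libraries labelled PM2.5 held less of genes that particles are known to induce: HMOX1 (haem oxygenase 1) was at 812 ± 58.1 CPM (counts per 1000000 of the library's total, corrected by TMM scaling factors) in the Control libraries and at 51.2 ± 6.0 CPM in those labelled PM2.5, and CYP1A1 was at 6.28 ± 1.73 and 2.73 ± 0.65 CPM (SD, n = 3 each). The proliferation marker MKI67 was at means of 23.7 and 158 CPM and the endoplasmic reticulum chaperone HSPA5 at 5114 ± 1988 and 12639.9 ± 382 CPM. Directions are given for the libraries as labelled. Control replicate 3 stood apart from the other Control libraries on the second principal component, at -36.9 against 16.5 and 14.8. All 5 markers fixed for MDA-MB-231 were detected, led by VIM at 2289 and 2680.3 CPM, while ESR1 had no count, PGR 10 and CDH1 3 over the 6 libraries, and ERBB2 was at 64.9 and 43.1 CPM. Of the markers of other cells, the leukocyte genes PTPRC and CD3E and the fibroblast genes DCN and LUM had no counts, and the endothelial genes CDH5 and TEK had 4 and 1. Other genes of these lists were present: the endothelial PECAM1 was at 43.7 ± 5.93 and 55.1 ± 2.26 CPM and called higher, the fibroblast COL1A1 was at 23.2 ± 4.4 and 23.5 ± 2.3 CPM, and COL1A2 (0.0195 and 0.547 CPM) and the myoepithelial OXTR (0.784 and 1.99 CPM) were called higher at low levels (SD, n = 3 each). The endothelial KDR was lower in every library labelled PM2.5 (means of 1.40 and 0.655 CPM) but not called (adjusted p = 0.051 in edgeR). Also not called were the endothelial VWF (0.381 and 0.428 CPM) and the myoepithelial ACTA2 (1.87 and 1.45 CPM). The same held for the platelet genes PF4 (0.822 and 1.25 CPM) and GP1BA (1.78 and 1.93 CPM). The summed markers were at 39.8 to 52.6 CPM in the Control libraries and 54.2 to 58.8 CPM in those labelled PM2.5 for the 5 endothelial genes, at 18.3 to 26.5 and 22.5 to 26.6 for the 5 fibroblast genes and at 2.31 to 3.36 and 3.53 to 3.98 for the 5 myoepithelial genes, and their part in the results was not tested.

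Of the 38 genes 30 passed the filter on low counts and were tested, 20 integrins and 10 laminins. In the libraries labelled PM2.5, 14 rose and 4 fell in the quasi-likelihood test of edgeR, with p-values adjusted by Benjamini and Hochberg's method over all 14975 genes tested and a threshold of 0.05. That is 46.7% higher and 13.3% lower, where 31.9% of all tested genes were called, 16.1% higher and 15.8% lower. The share of falls was thus near that of all genes, and the share of rises above it. ITGA10, LAMA5, ITGA6 and ITGB4 rose most among chains above 5 CPM, and ITGB3, ITGAX and LAMA1 were among the 4 that fell. In bulk RNA a change in a subset of cells and a change in every cell cannot be told apart.

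The 3 genes ITGAM, ITGA7 and ITGB7 reached the filter's level in 1 Control library and in all 3 libraries labelled PM2.5, and so entered the test mainly through the PM2.5 group. Of the remaining 27 genes 13 rose and 4 fell. In 19 of the 30 genes the Control and PM2.5 libraries held ranges with no overlap, where this held for 44.3% of all tested genes. The median log2 fold change was 0.66 for the 20 integrins and 0.28 for the 10 laminins, beside -0.01 for all tested genes. With genes of a mean under 1 CPM left out, among them ITGAM, ITGA7 and ITGB7, the integrin median was 0.48. Without PM2.5 replicate 3 the integrin median was 0.43 and the laminin median 0.18. The number of rises ran from 10 to 14 when 1 library was left out.

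**Figure D1:**
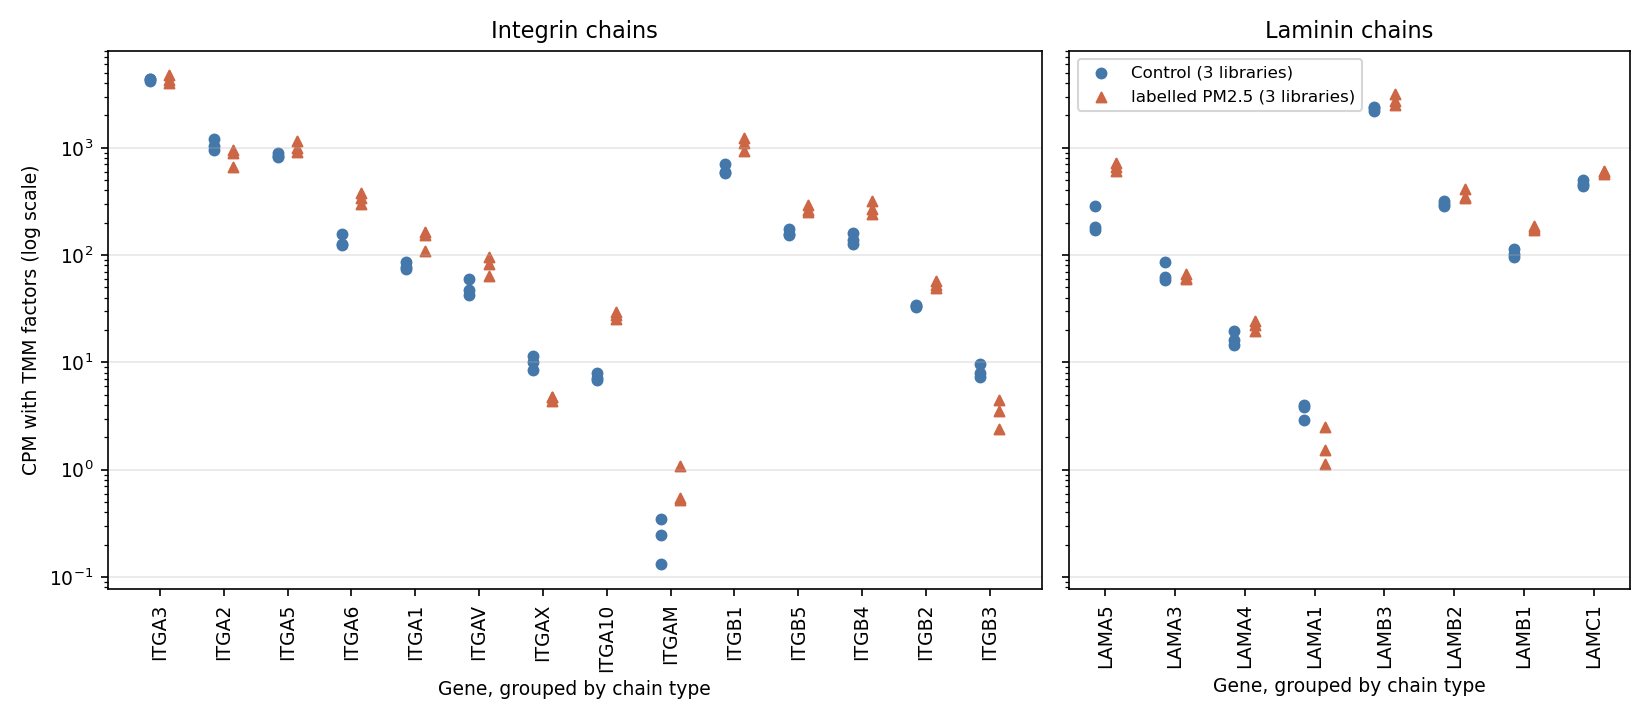
Levels of integrin and laminin chains that were called or reached a mean of 20 CPM in either group, in each library and for the genes described here (y axis: CPM with TMM factors, log scale; x axis: genes by chain type; circles are the 3 Control libraries, triangles the 3 libraries labelled PM2.5). ITGA3 lies between 3973 and 4743 CPM in all 6 libraries, and the triangles of ITGAX, ITGB3 and LAMA1 lie below the circles.

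The 8 untested genes were at or close to 0. ITGA8, which with beta 1 forms a receptor of kidney and smooth muscle, and ITGB6, the epithelial beta chain that activates TGF-beta with alpha V, had no count in any library. A count of 0 allows up to 0.0864 to 0.098 CPM, taken as 3 counts per library on the TMM scale, and more where both mates of a read pair were counted. ITGA4 and LAMB4 had 2 counts each over the 6 libraries, ITGAL 4, ITGAD 6, LAMC3 11 and the platelet chain ITGA2B 33. The line therefore listed almost no RNA of alpha 4, alpha L, alpha D, beta 6 and gamma 3 chains.

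**Figure D2:**
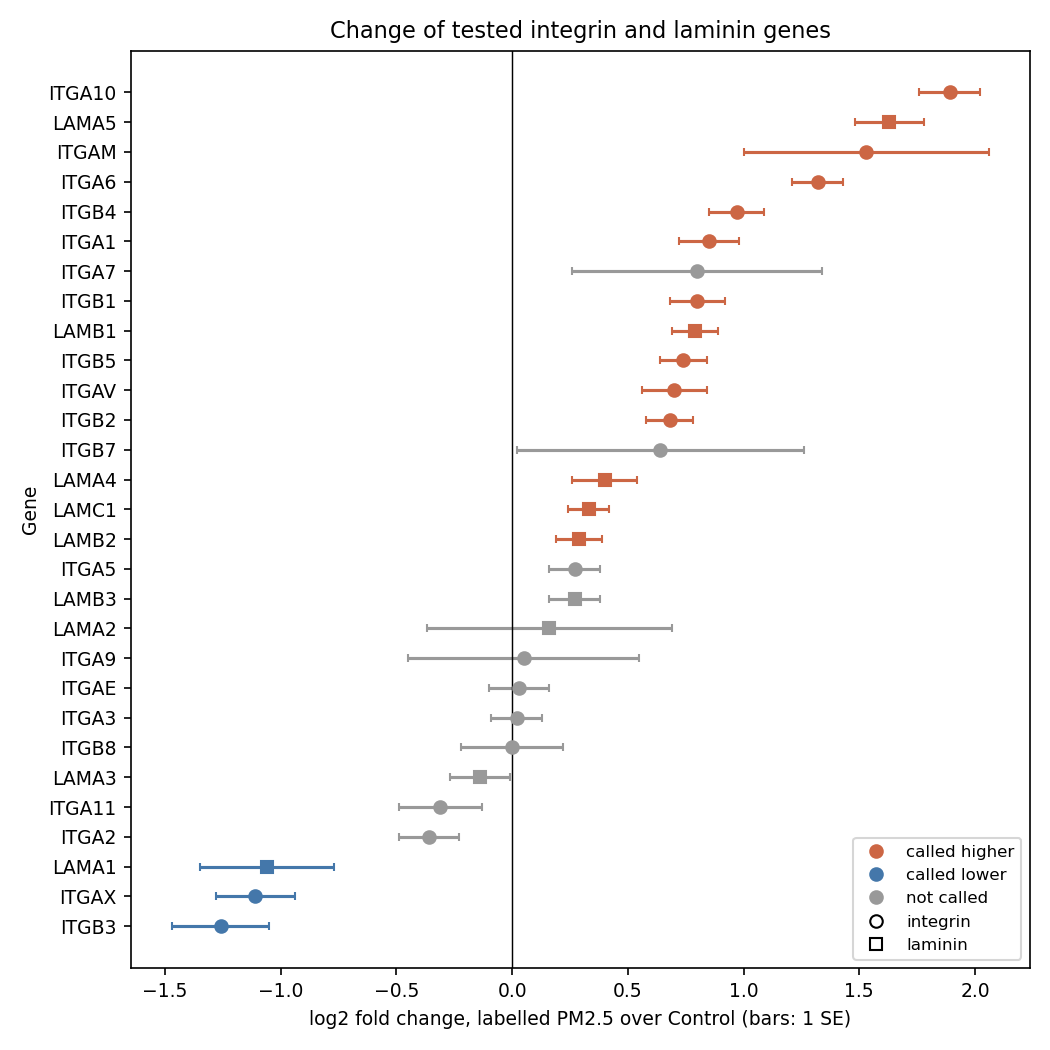
Log2 fold change (labelled PM2.5 over Control, x axis, bars of 1 SE) of the tested integrin and laminin genes described here, sorted by size (circles are integrins, squares laminins, and colour gives the call). ITGA10 leads the rises at 1.89 and ITGB3 the falls at -1.26.

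The laminin receptors of epithelial cells rose through alpha 6 and beta 4, whereas alpha 3, their most abundant alpha chain, did not pass the test. ITGA6 (ENSG00000091409), the alpha chain of α6β1 and α6β4, is found at 172427354 to 172506282 of chromosome 2, plus strand (all gene coordinates are of GRCh38). It was at 124, 128 and 156 CPM in Control replicates 1, 2 and 3 and at 341, 376 and 302 CPM in PM2.5 replicates 1, 2 and 3. Every library labelled PM2.5 was above every Control library, a 2.49-fold rise (log2 fold change 1.32 ± 0.11, SE, adjusted p = 2.75e-07). Reads of ITGA6 could include those of opposite-strand transcripts, whose exons cover 5.4% of its exonic bases, since the sources used here do not say whether strand was used in counting.

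ITGB4 (ENSG00000132470), on the plus strand of chromosome 17 at 75721328 to 75757818, is the hemidesmosomal beta chain. Its levels were 138, 127 and 159 CPM in the Control libraries and 269.8, 242 and 319 CPM in those labelled PM2.5, again without overlap. The rise was 1.96-fold (log2 fold change 0.97 ± 0.12, SE, adjusted p = 1.11e-05). Per length, as CPM per kilobase of all annotated exons, the 2 chains of α6β4 were at the same mean level of 20.9 in the Control libraries, and at 51.9 ± 5.67 for alpha 6 and 40.9 ± 5.78 for beta 4 in those labelled PM2.5 (SD, n = 3). The ratio of alpha 6 to beta 4 per length was 0.932, 1.05 and 1.02 in the Control libraries and 1.31, 1.61 and 0.979 in the others, which overlapped.

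ITGA3 (ENSG00000005884), on the plus strand of chromosome 17 at 50055968 to 50090481, makes the laminin receptor α3β1 and was the most abundant integrin chain per length. It held 4368, 4329 and 4159.7 CPM in the Control libraries and 4320.1, 3973 and 4743 CPM in those labelled PM2.5. The groups overlapped, and the log2 fold change was 0.02 with a 95% interval of -0.19 to 0.23. ITGA7, the laminin receptor chain of muscle, stayed under 1 CPM in every library and was not called (0.80 ± 0.54, SE).

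Beta 1, the common partner of 12 alpha chains, rose as well. ITGB1 (ENSG00000150093), on the minus strand of chromosome 10 at 32900319 to 33005792, was at 589.7, 581 and 704 CPM in the Control libraries and at 1101, 1235 and 936 CPM in those labelled PM2.5. No library of the groups overlapped, and the rise was 1.75-fold (log2 fold change 0.80 ± 0.12, SE, adjusted p = 8.83e-05). Its 12 alpha partners summed to 718 ± 16.5 CPM per kilobase in the Control libraries and 758 ± 29 in the others, with overlap between the groups (SD, n = 3). The ratio of beta 1 to that sum went from 0.145 ± 0.013 to 0.24 ± 0.042, with no overlap (exact two-sided permutation p = 0.1, the smallest that 3 against 3 libraries can give). This and 40 other sums, shares and ratios were computed over the libraries, and the smallest Benjamini-Hochberg adjusted exact permutation p among the 41 was 0.146, so none passes a threshold of 0.05.

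Among the partners of beta 1, alpha 3 took 61.0% ± 2.76 of the summed level per length in the Control libraries and 58.4% ± 2.99 in those labelled PM2.5. Alpha 6 took 2.91% ± 0.317 and 6.88% ± 1.01, which did not overlap. The share of alpha 2 was 18.8% ± 1.98 and 14.0% ± 3.05, also without overlap (SD, n = 3 each). A share can move through the other chains of the sum as well as through its own.

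The 4 collagen-binding alpha chains did not move together. ITGA1 and ITGA2, the chains of α1β1 and α2β1, are neighbours on the plus strand of chromosome 5, with 30.1 kb and no protein-coding gene between them. ITGA1 (ENSG00000213949, 52787896 to 52959210) was at 77.2, 73.8 and 85.7 CPM in the Control libraries and at 153, 163 and 109 CPM in those labelled PM2.5. It rose 1.80-fold without overlap (log2 fold change 0.85 ± 0.13, SE, adjusted p = 1.15e-04). Exons of other genes cover 6.4% of the exonic bases of ITGA1. Same-strand genes, PELO among them, cover 5.6%, so how reads there were assigned is uncertain. After removal of GC and length trends per library the log2 fold change of ITGA1 was 0.55, which is smaller by over 1.5 times.

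ITGA2 (ENSG00000164171, 52989326 to 53094779), the collagen receptor chain of epithelia and platelets, was at 1035, 949 and 1217 CPM in the Control libraries and at 892, 949.7 and 657 CPM in those labelled PM2.5. Control replicate 2 and PM2.5 replicate 2 overlapped, and the gene missed the threshold narrowly (log2 fold change -0.36 ± 0.13, SE, adjusted p = 0.0509). It was called lower in 7 of the 13 alternative analyses, among them those without Control replicate 2 (adjusted p = 0.0432 in the same edgeR test) and without PM2.5 replicate 2 (0.0325). The log2 fold change shrank to -0.26 without Control replicate 3 (adjusted p = 0.127 in edgeR) and to -0.21 without PM2.5 replicate 3 (0.21). The ratio of alpha 2 to alpha 1 per length was 31.5, 30.2 and 33.3 in the Control libraries and 13.7, 13.7 and 14.1 in the others, a gap far wider than the spread within either group (exact two-sided permutation p = 0.1, the smallest possible).

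ITGA10 (ENSG00000143127), the alpha 10 chain known from cartilage, lies on the minus strand of chromosome 1 at 145891208 to 145910189 and showed the largest rise of the tested chains by fold. Its levels were 6.92, 7.22 and 8.01 CPM in the Control libraries and 27.5, 25.4 and 29.4 CPM in those labelled PM2.5. The groups were far apart, at 3.71-fold (log2 fold change 1.89 ± 0.13, SE, adjusted p = 1.91e-08). Per length alpha 10 stayed low, at 0.163% ± 0.0101 and 0.572% ± 0.0202 of the alpha partners of beta 1 (SD, n = 3 each). ITGA11, the collagen receptor chain of fibroblasts, was at 5.13 to 7.28 CPM over the 6 libraries and was not called (log2 fold change -0.31, 95% interval -0.66 to 0.04).

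**Figure D3:**
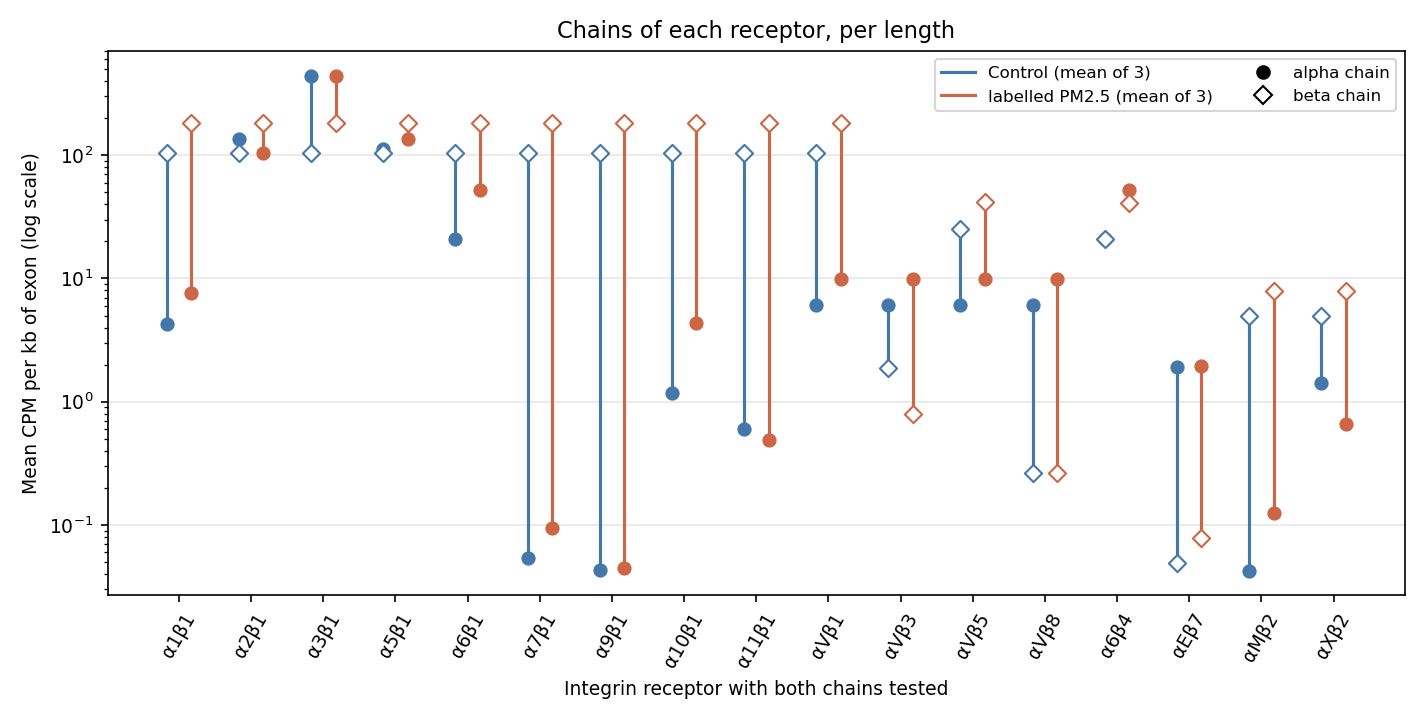
Mean level per length (CPM per kb of exon, log scale, n = 3) of the alpha chain (filled circle) and beta chain (open diamond) of the 17 integrin receptors with both chains tested, Control to the left and labelled PM2.5 to the right of each pair. For α3β1 the alpha chain lies above the beta chain in both groups, and for α2β1 and α5β1 their order differs between the groups.

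Among the RGD receptors, the chains of αVβ5 rose and beta 3 fell. ITGAV (ENSG00000138448, plus strand of chromosome 2, 186590065 to 186680901), the alpha chain of 5 receptors, was at 42.5, 47.7 and 59.6 CPM in the Control libraries and at 83.1, 96.6 and 63.5 CPM in those labelled PM2.5. The lowest PM2.5 library, replicate 3, was close to Control replicate 3, and the rise was 1.62-fold (log2 fold change 0.70 ± 0.14, SE, adjusted p = 0.00159). After removal of GC and length trends per library the log2 fold change of ITGAV was smaller, at 0.49 (adjusted p = 9.71e-04 in edgeR). ITGB5 (ENSG00000082781, minus strand of chromosome 3, 124761948 to 124901418), which with alpha V binds vitronectin, was at 156, 153 and 175 CPM and at 264, 252 and 295 CPM, a 1.68-fold rise (log2 fold change 0.74 ± 0.10, SE, adjusted p = 3.13e-05).

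ITGB3 (ENSG00000259207), the beta chain of the vitronectin receptor αVβ3 and of the platelet receptor, is on the plus strand of chromosome 17 at 47253846 to 47311816. It was at 7.31, 8.02 and 9.56 CPM in the Control libraries and at 4.46, 2.41 and 3.53 CPM in those labelled PM2.5. All 3 PM2.5 values were below all Control values, a 2.39-fold fall (log2 fold change -1.26 ± 0.21, SE, adjusted p = 3.48e-04). Exons of the same-strand gene AC068234.1 cover 51.6% of its exonic bases, and that gene is listed with no count in any library, so how reads in the shared exons were assigned is uncertain. The ratio of beta 3 to alpha V per length was 0.312 ± 0.0114 in the Control libraries and 0.0836 ± 0.032 in the others, while beta 5 to alpha V was 4.17 ± 0.476 and 4.43 ± 1.34 (SD, n = 3 each). Beta 5 made up 92.1% ± 0.61 and 97.5% ± 0.448 of the summed level per length of beta 3, 5, 6 and 8. This share and the ratio of beta 3 to alpha V depend on how reads in the shared exons of ITGB3 were assigned.

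ITGB8, which with alpha V activates latent TGF-beta, was at 3.36 to 4.94 CPM in the Control libraries and at 3.54 to 4.64 CPM in those labelled PM2.5, with a log2 fold change whose 95% interval ran from -0.42 to 0.42. ITGA5 (ENSG00000161638, minus strand of chromosome 12, 54395261 to 54419460), the fibronectin receptor chain, was at 845, 818 and 891 CPM in the Control libraries and at 1005, 906 and 1162 CPM in the others. The groups did not overlap, but the difference did not pass the test (log2 fold change 0.27 ± 0.11, SE, adjusted p = 0.0688). It passed without Control replicate 3 (adjusted p = 0.0277 by the same edgeR test), without PM2.5 replicate 2 (0.0374), in DESeq2 (0.0356) and with GC and length trends removed (0.00855). It did not pass in the other alternatives, and without PM2.5 replicate 3 the log2 fold change was 0.17 (adjusted p = 0.272 in edgeR).

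Read as pairs, 17 of the 24 known integrin receptors had both chains tested. Both chains rose in 7 of them: α1β1, α6β1, α10β1, αVβ1, αVβ5, α6β4 and αMβ2. The last counts through ITGAM, which entered the test mainly through the PM2.5 group, and 6 receptors remain without it. ITGAM lost its call in 7 of the alternatives and was not tested in the one with a mean of at least 1 CPM. In 2, αVβ3 and αXβ2, the alpha and beta chain moved in opposite directions, in 7 only 1 chain rose and the other was not called, and in αEβ7 neither was called. No receptor had 2 falling chains. Pairs that share beta 1 or alpha V are not independent of each other.

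Per length, the ratio of alpha 2 to beta 1 was 1.33, 1.24 and 1.31 in the Control libraries and 0.616, 0.584 and 0.534 in those labelled PM2.5, so the less abundant chain of α2β1 was beta 1 in the first group and alpha 2 in the second. The ratio of alpha 5 to beta 1 was 1.14, 1.12 and 1.0 and then 0.724, 0.582 and 0.984, where the third library of each group was close to equal levels. For α3β1 beta 1 was the less abundant chain in all 6 libraries. Its level went from 98.1, 96.6 and 117 to 183, 205 and 156 CPM per kilobase. RNA levels do not give the amount of assembled receptor.

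Chains named for leukocytes were present at low levels. ITGB2, the beta chain of the leukocyte integrins on chromosome 21 at 44885953 to 44931989 (minus strand, ENSG00000160255), was at 32.6, 33.4 and 34.4 CPM in the Control libraries and at 53.1, 49.8 and 57.3 CPM in those labelled PM2.5. It rose 1.60-fold without overlap (log2 fold change 0.68 ± 0.10, SE, adjusted p = 8.83e-05). Its partner ITGAX (alpha X, ENSG00000140678) fell 2.16-fold, from 11.5, 10.1 and 8.51 CPM to 4.78, 4.4 and 4.78 CPM (log2 fold change -1.11 ± 0.17, SE, adjusted p = 1.21e-04).

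ITGAM (alpha M, ENSG00000169896) lies 22.2 kb before ITGAX on the plus strand of chromosome 16, with no protein-coding gene between them, and went the other way. It had 4, 8 and 12 counts in the Control libraries and 18, 18 and 37 in those labelled PM2.5. The rise (log2 fold change 1.53 ± 0.53, SE, adjusted p = 0.0386) rests on few counts. It no longer passed when Control replicate 1 (adjusted p = 0.153 in edgeR), Control replicate 2 (0.0975) or PM2.5 replicate 1, 2 or 3 (0.0566, 0.0597 and 0.213) was left out, in DESeq2 (0.0726) and with the replicate number as a block (0.0554).

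The 6 leukocyte markers summed to 1.46 to 3.07 CPM in the Control libraries and 4.49 to 5.83 CPM in those labelled PM2.5. Of these, CD14 and LYZ were called higher, PTPRC and CD3E were at 0 in all libraries, and CD79A was too low to test. The part of these markers in the ITGB2, ITGAX and ITGAM results was not tested. ITGAE, the alpha chain of the receptor for E-cadherin on intraepithelial T cells, was at 12.0 to 13.2 CPM and 12.1 to 14.0 CPM and was not called (95% interval of the log2 fold change -0.23 to 0.29). Its beta chain ITGB7 had 2 to 14 counts per library, and exons of ZNF740 on the other strand cover 42.1% of its exonic sequence.

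Of the alpha and beta chains of laminin-332, neither passed the test. LAMB3 (ENSG00000196878, beta 3, minus strand of chromosome 1, 209614870 to 209652466) was the most abundant laminin beta chain per length, at 2398, 2361 and 2181 CPM in the Control libraries and at 2711, 2505 and 3138 CPM in those labelled PM2.5.

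LAMB3 was thus higher in every library labelled PM2.5 but did not pass the test (log2 fold change 0.27 ± 0.11, SE, adjusted p = 0.0772), except in DESeq2 (0.0314) and with GC and length trends removed (0.0026).

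LAMA3 (ENSG00000053747, alpha 3 of laminin, plus strand of chromosome 18, 23689443 to 23956222) was at 62.1, 58.9 and 86.0 CPM in the Control libraries and at 60.4, 67.0 and 61.0 CPM in those labelled PM2.5. Control replicate 3 held the highest value, the groups overlapped, and the log2 fold change was -0.14 with a 95% interval of -0.38 to 0.11, or 0.05 without Control replicate 3. Per length alpha 3 was at 4.70 ± 1.01 and 4.28 ± 0.249 CPM per kilobase, against 493 ± 24.8 and 594 ± 68.9 for beta 3 (SD, n = 3 each). Since the exons of all annotated forms are counted in a length of 14678 bases, a gene with a short main form, as LAMA3 can have, is set too low on this scale.

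The motif of AP-1, the Fos and Jun transcription factor, was searched for as TGANTCA on both strands in the 250 bases before each start that RefSeq gives (GRCh38.p14). Of 38 genes 26 had such a promoter. A match was found for LAMB3 and LAMA3, both of laminin-332, and for no other of the 26. That is 2 of their 33 promoters (6.1%), near the 6.6% of 35116 promoters of all genes. They are shown with 10 bases on each side, read 5′ to 3′ on the strand of the gene, with the match in capitals. A match says only that these letters are there.
LAMB3, 67 bases before a start, chr1:209651425-209651451, minus strand: tcagccactcTGACTCAttcactttgg
LAMA3, 125 bases before a start, chr18:23872885-23872911, plus strand: tggcacaggcTGACTCAtgtgtgaagt
LAMA3, 69 bases before the same start, chr18:23872941-23872967, plus strand: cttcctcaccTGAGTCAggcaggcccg
The motifs GGAATG of the TEAD factors and TGACNNNGC, the core of the antioxidant response element bound by NRF2, were found on either strand in 4 and 3 of the 33 promoters (12.1% and 9.1%), and in 11.9% and 10.9% of all promoters.

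The chains of laminin-511 and laminin-521 all rose. LAMA5 (ENSG00000130702, alpha 5, minus strand of chromosome 20, 62307955 to 62367312) was at 184, 170.4 and 286 CPM in the Control libraries and at 656, 608 and 715 CPM in those labelled PM2.5. The highest Control library, replicate 3, was far below the lowest PM2.5 library, and the rise was 3.09-fold (log2 fold change 1.63 ± 0.15, SE, adjusted p = 9.05e-07), or 1.89 on the log2 scale without Control replicate 3. LAMB1 (ENSG00000091136, beta 1 of laminin, minus strand of chromosome 7, 107923799 to 108003255) was at 102, 95.1 and 113 CPM and at 177, 187 and 171 CPM, a 1.73-fold rise (log2 fold change 0.79 ± 0.10, SE, adjusted p = 1.26e-05).

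LAMB2 (ENSG00000172037, beta 2 of laminin) was at 298, 287 and 321 CPM in the Control libraries and at 351, 339 and 417 CPM in those labelled PM2.5. Its rise was small, at 1.22-fold (log2 fold change 0.29, or 0.19 without PM2.5 replicate 3, adjusted p = 0.0403 in edgeR), and the call was lost without Control replicates 1 or 2 (adjusted p = 0.126 and 0.164) or PM2.5 replicates 1 or 3 (0.0905 and 0.178) and with the replicate block (0.0555). LAMC1 (ENSG00000135862, gamma 1, plus strand of chromosome 1, 183023460 to 183145592) was at 444, 462 and 504 CPM and at 573, 602 and 596 CPM. It rose 1.26-fold without overlap (adjusted p = 0.0141 in edgeR), a call lost without Control replicates 1 or 2 (0.0975 and 0.0681) or PM2.5 replicate 1 (0.0606).

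Of the laminin alpha chains, LAMA5 took 69.5% ± 2.79 of the summed level per length in the Control libraries and 87.9% ± 1.51 in the others, and LAMA3 took 22.2% ± 0.876 and 8.19% ± 0.956 (SD, n = 3 each). The summed level of alpha chains was 21.3 ± 5.40 and 52.5 ± 3.40 CPM per kilobase, under that of the beta chains (550.2 ± 21.7 and 669.7 ± 74.1) in both groups (SD, n = 3 each). Since LAMA3 can be set too low per length, as said above, these shares and sums depend on the length used.

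**Figure D4:**
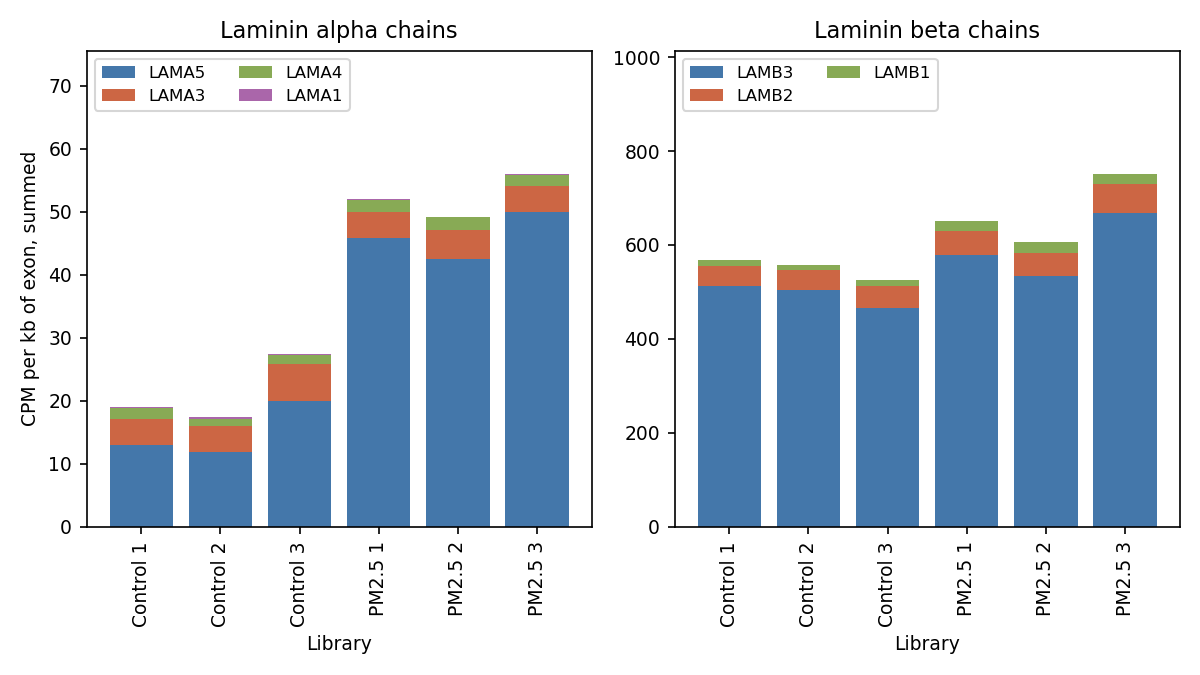
Level per length (CPM per kb of exon) of the laminin alpha and beta chains in each of the 6 libraries, stacked by gene (LAMA2 and untested chains are too low to show). The alpha and beta sums are higher in every library labelled PM2.5, and the y axes differ between panels.

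The 250 bases before the starts of LAMA5 and LAMC1, both chains of laminin-511 and laminin-521, are shown because no annotated exon lies in the windows and both genes were called higher. Their rises differed in size, at 3.09-fold and 1.26-fold. They run 5′ to 3′ on the strand of the gene (RefSeq, GRCh38.p14), with the GC box GGGCGG, on either strand, in capitals.
LAMA5, chr20:62367313-62367562, minus strand: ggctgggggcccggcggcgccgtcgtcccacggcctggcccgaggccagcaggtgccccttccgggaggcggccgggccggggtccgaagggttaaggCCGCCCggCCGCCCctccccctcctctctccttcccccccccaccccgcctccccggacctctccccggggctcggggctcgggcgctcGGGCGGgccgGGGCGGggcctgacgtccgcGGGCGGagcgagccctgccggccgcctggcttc
LAMC1, chr1:183023170-183023419, plus strand: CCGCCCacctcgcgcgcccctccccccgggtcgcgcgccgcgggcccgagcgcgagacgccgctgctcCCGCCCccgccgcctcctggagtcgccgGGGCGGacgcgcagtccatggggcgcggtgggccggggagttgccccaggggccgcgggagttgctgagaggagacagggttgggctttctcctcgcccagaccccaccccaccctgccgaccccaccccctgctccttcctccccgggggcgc
The LAMA5 window is 82.8% G and C with 5 GC boxes, and the LAMC1 window 79.6% with 3. A GC box was found in 17 of the 33 promoters (51.5%) and in 42.6% of all promoters. Windows without exons of other genes called higher held fewer, with 0 for ITGA6, ITGAV and ITGB1 and 2 for ITGB5. Another window of ITGA6 and of ITGB1, overlapping exons, held 3 each. GC boxes were thus not shared by all windows of the genes that rose.

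The remaining alpha chains of laminin were low. LAMA4 (ENSG00000112769), found around blood vessels and in muscle, was at 19.5, 14.5 and 16.0 CPM in the Control libraries and at 22.1, 24.2 and 19.5 CPM in those labelled PM2.5. The groups overlapped, and the call of a rise (log2 fold change 0.40 ± 0.14, SE, adjusted p = 0.0369 in edgeR) was lost without Control replicates 2 or 3 (adjusted p = 0.169 and 0.077), without PM2.5 replicates 1 or 2 (0.0947 and 0.133), with the replicate block (0.0647) and with GC and length trends removed (0.0608). LAMA1 (ENSG00000101680), the chain of the first laminin of the embryo, fell 2.08-fold from 3.82, 2.93 and 4.01 CPM to 1.12, 1.54 and 2.51 CPM (log2 fold change -1.06 ± 0.29, SE, adjusted p = 0.0101). Without PM2.5 replicate 1 its adjusted p was 0.058 in edgeR. LAMA2, the chain of muscle basement membrane, stayed under 1 CPM in every library and was not called.

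Libraries labelled PM2.5 differed among themselves in a way that followed the GC content of the chains. Over the 17 integrins and laminins with a mean of at least 20 CPM, the deviation of log2 CPM from the group mean correlated with the GC content of the longest transcript at r = 0.92 (rho = 0.87) in PM2.5 replicate 3 and at r = -0.93 (rho = -0.90) in PM2.5 replicate 2. In PM2.5 replicate 1 r was -0.67 (rho = -0.57), and in Control replicates 1, 2 and 3 it was 0.33, -0.05 and -0.15 (rho = 0.37, 0.07 and -0.32). Over all tested genes r was -0.02, -0.45 and 0.47 in PM2.5 replicates 1, 2 and 3, and the deviations of a group sum to 0, so these values are not independent. PM2.5 replicate 3 was lowest in its group for the AT-rich genes ITGAV (38.3% GC, deviation -0.33), ITGA1 (38.8%, -0.35), ITGB1 (40.0%, -0.21) and ITGA2 (40.2%, -0.32), and highest for the GC-rich genes ITGB4 (63.7%, 0.21) and LAMB3 (58.9%, 0.18). After removal of GC and length trends, 15 of the 30 genes rose and 5 fell, beside 2741 and 2594 of all 14975 tested genes. ITGA2 was then among the falls at -0.51 (adjusted p = 5.79e-04 in edgeR).

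**Figure D5:**
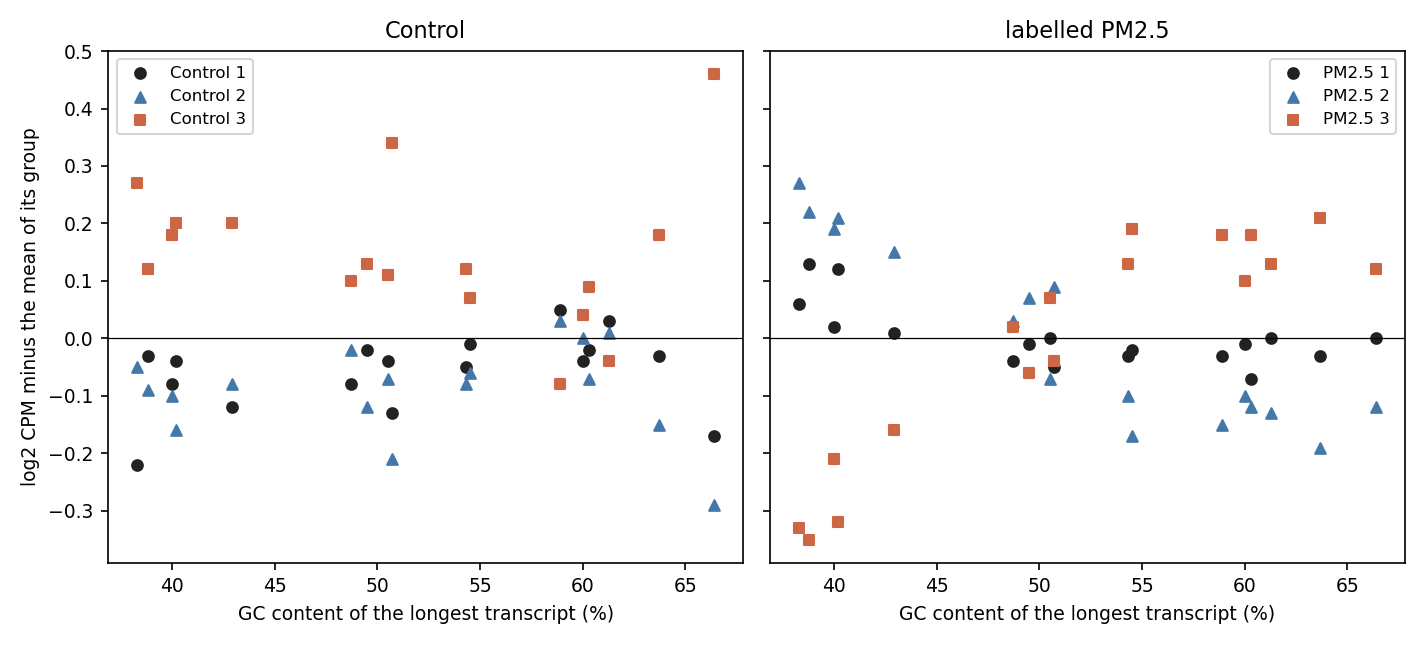
Deviation of each library's log2 CPM from the mean of its group (y axis) against the GC content of the longest transcript (x axis, %), for the 17 integrins and laminins with a mean of at least 20 CPM. In the right panel PM2.5 replicate 3 runs upward and PM2.5 replicate 2 downward with GC content.

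Of 21 partners of the laminins in the basement membrane and hemidesmosome 18 were tested, of which 12 rose (66.7%) and 1 fell (5.56%), with a median log2 fold change of 0.61, beside 16.1% and 15.8% of all tested genes. Perlecan (HSPG2), the heparan sulfate proteoglycan that binds laminin, was at 79.1 ± 13.9 and 196 ± 21.9 CPM and rose 2.48-fold, the type IV collagen chains COL4A2 and COL4A1 rose 1.86-fold and 1.65-fold, and the plakin DST, which links α6β4 to keratin, rose 1.98-fold (SD, n = 3 each). The gene that fell was the laminin-binding netrin NTN4 (log2 fold change -0.43 ± 0.11, SE), named after its values were seen. NID1, which ties laminin to type IV collagen, had no count in any library (also named after its values were seen).

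Inside the cell, of 36 integrin activators and adhesion plaque genes 34 were tested, and 11 rose (32.4%) and 6 fell (17.6%), with a median of 0.08. The share of falls is near the 15.8% of all tested genes, and the share of rises is above their 16.1%. The paxillin relative LPXN fell 2.70-fold from 251 ± 27.5 to 93.1 ± 7.41 CPM, whereas TNS1, a tensin that binds beta chain tails, rose 4.27-fold, its means being 2.40 ± 0.287 and 10.2 ± 1.14 CPM (SD, n = 3 each). The scaffold NEDD9 rose 2.16-fold and kindlin FERMT1 1.98-fold. The number of falls was 2 without Control replicate 1 or PM2.5 replicate 2 and 3 without PM2.5 replicate 1. Talin itself was not called (TLN1 log2 fold change -0.05 ± 0.10, SE, named after its values were seen).

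Of 33 other integrin ligands 20 were tested, and 10 rose (50%) and 1 fell (5.0%), with a median of 0.26, beside 16.1% and 15.8% of all tested genes. Those with the smallest p were CTGF, which binds several integrins, tenascin TNC, TGFBI and the adhesion molecule L1CAM, at 6.07-fold, 4.92-fold, 2.35-fold and 2.10-fold. The 10 rises include COL1A2 (means of 0.0195 and 0.547 CPM), which entered the test through the PM2.5 group, so its rise is no support. With genes of a mean under 1 CPM left out, 9 rose. Fibronectin (FN1), the ligand of α5β1, was at 2679 ± 221 and 6163 ± 301 CPM and rose 2.30-fold (SD, n = 3 each, named after its values were seen). The single fall, of the elastic fibre protein FBLN5 (-0.60 ± 0.21, SE, named after its values were seen), was lost without Control replicates 1 or 2 or PM2.5 replicates 1 or 2, with the replicate block, with GC and length trends removed and in DESeq2, while 2 genes fell without Control replicate 3 or PM2.5 replicate 3.

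Of 14 genes of integrin recycling 12 were tested, and 1 rose (8.33%) and 4 fell (33.3%), with a median of -0.11, beside 16.1% and 15.8% of all tested genes. RAB11B of recycling endosomes fell 1.47-fold, RAB7A of late endosomes 1.36-fold and SNX17, which returns beta 1 integrins from endosomes, 1.29-fold, while RAB5A of early endosomes rose 1.25-fold. Without PM2.5 replicate 1 there were 2 falls and no rise, and the rise was also lost without Control replicate 1 or PM2.5 replicate 2. Of 8 tetraspanins that join integrins in the membrane 7 were tested, and 4 rose (57.1%) and 1 fell (14.3%). The rises were of CD9 (1.40-fold), CD37 (2.62-fold, to a mean of 2.18 CPM), CD151 (1.32-fold, also counted among the laminin partners) and TSPAN4 (1.30-fold). The fall of CD63 (-0.34 ± 0.10, SE, named after its values were seen) was lost without Control replicates 1 or 2 or PM2.5 replicates 1 or 2 and with GC and length trends removed, and 2 fell without Control replicate 3.

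Integrin genes together took 0.743% ± 0.0549 of all counts in the Control libraries and 0.859% ± 0.00295 in those labelled PM2.5, without overlap, and laminin genes 0.863% ± 0.0787 and 0.799% ± 0.0412, with overlap (SD, n = 3 each).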

How the data were processed

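RNA of 3 Control and 3 PM2.5 libraries of MDA-MB-231 was analysed from 1 table of raw gene counts that the authors deposited (per the file headers). Per the submitters' processing notes the build was GRCh38. The sources used here name no aligner, counter or strand setting. Gene lengths in bases are a column of the deposited table and equal the union of exons in GENCODE release 29 for all 38 genes, so that scaling by that union changed no level. Columns were matched to libraries by title. Low counts were mostly even (61.3% to 62.7% of counts from 1 to 10, against 49.9% to 52.1% of counts from 50 to 200), so counts may hold both mates of a pair. Floors cover counting error only, while intervals come from the edgeR fit and include the spread between these libraries.

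Counts were filtered by filterByExpr (minimum count 10, minimum total 15), scaled by TMM and tested in R 4.3.3 with edgeR 4.0.16 (quasi-likelihood, two-sided, group as the only term, Benjamini-Hochberg adjustment over 14975 genes, called at an adjusted p under 0.05). The SE was taken as the size of the log2 fold change over the root of its F statistic, and intervals are 95%. CPM uses the total of the whole table. The fit was tested on simulated data. Alternatives were RLE factors, no filter, a mean of at least 1 CPM, DESeq2 1.42.0, limma-voom (limma 3.58.1), a replicate block, each library left out and, added after the data were seen, removal of GC and length trends.

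The genes and lists were chosen with earlier results of these data known. Values per library are given for chains that were called or had a mean of at least 20 CPM in either group, and from each list up to 4 called genes with the smallest p are named, with HMOX1, CYP1A1, MKI67 and HSPA5 in any case. The values of 1 gene of the set and of 1 marker are not reported here, though the counts include them. In DESeq2 genes without an adjusted p were left out.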

Additional observations from a re-analysis of the deposited data

How the results depend on the processing

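Of 18 called genes 13 kept their call in each of the 13 alternatives that tested them, and ITGAM, LAMA1, LAMA4, LAMB2 and LAMC1 lost it in at least 1. The numbers of integrin and laminin genes called higher and lower stayed within 10 to 15 and 3 to 5. Of all tested genes 2410 were higher and 2365 lower, with 1797 to 2600 and 1448 (without PM2.5 replicate 1) to 2680 when 1 library was left out. With GC and length trends removed 2741 were higher and 2594 lower. Deviations of same-numbered libraries were not positively correlated (-0.002, -0.051 and -0.122). These deviations sum to 0 within a group and in part followed GC content, so they cannot show whether the cultures were paired. The fit with the replicate number as a block called 11 genes higher and 4 lower, and 1951 and 1826 of all genes. Signs turned only for genes that were not called, and the cause was not tested: with 1 library left out the log2 fold change ran from -0.05 to 0.08 for ITGA3, -0.11 to 0.21 for ITGA9, -0.03 to 0.09 for ITGAE, -0.22 to 0.52 for LAMA2 and -0.24 to 0.05 for LAMA3. ITGB8 was at -0.01 with no filter and -0.27 with GC and length trends removed, and between -0.12 and 0.18 with 1 library left out. Depth limits what can be said of chains under 1 CPM.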
